A study of Caenorhabditis elegans with 43 samples.

Results

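The 9 cuticle collagen genes dpy-4, dpy-5, dpy-13, dpy-17, sqt-1, sqt-2, sqt-3, rol-1 and rol-6 were followed by ribosome profiling in whole Caenorhabditis elegans larvae. They were chosen by name, as collagens whose mutants change body shape, out of 20182 genes in the table of ribosome footprint counts. Ribosome profiling sequences the mRNA fragments that ribosomes protect, so a footprint count follows how much of an mRNA is being translated. The 43 libraries came from 4 strains grown at 25 °C and sampled every 2 h of development after arrested L1 larvae were fed. The second of the authors' time courses held wild type N2, lin-41(xe11) alone, and a strain with both alleles, lin-41(xe11); let-7(n2853), called the double mutant here, with 11 libraries each from 18 to 38 h. The first held let-7(n2853) alone, with 10 libraries from 18 to 36 h. The let-7(n2853) allele is a point mutation of the let-7 microRNA, and lin-41(xe11) alters the sites by which let-7 represses lin-41. The labels name no added agent and no transgene. Per the labels' protocols, monosomes of the first course came from sucrose gradients and those of the second from size-exclusion columns, so let-7(n2853) cannot be told apart from its course. Each strain and hour had 1 library, so that hours stand in for replicates. In fits over strains with a term for each hour, p-values measure how far strain differences varied from hour to hour. In the comparison of windows within N2 they measure the spread between hours. In no fit do p-values measure the spread between cultures.

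The cuticle is a collagen coat that the epidermis secretes anew in every larval stage and sheds at each molt. Collagen chains are hydroxylated and folded into trimers in the endoplasmic reticulum, trimmed by proteases on the way out and then crosslinked in the matrix. Loss of a dpy gene makes a short, fat (dumpy) animal, and mutations of sqt and rol genes give squat animals or animals that roll about their long axis. The dpy-5 and dpy-13 collagens belong to an assembly that is distinct from the furrow collagens (dpy-2, dpy-3, dpy-7, dpy-8, dpy-9 and dpy-10), which mark the circumferential furrows of the cuticle. SQT-1 and ROL-6 act together in genetic tests. SQT-3 and DPY-17 are linked genetically, and SQT-3 is trimmed by the protease DPY-31.

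The genes lie on 5 chromosomes and do not form a cluster (positions in WBcel235, since the build behind the counts is not given in the sources used here). On chromosome II are sqt-2 (23325 to 24458), rol-6 (8733050 to 8734239), sqt-1 (11336693 to 11337837) and rol-1 (12172573 to 12176069). On IV are dpy-13 (4235614 to 4236710) and dpy-4 (14985543 to 14986784), with dpy-5 on I (5432197 to 5433051), dpy-17 on III (5107330 to 5108492) and sqt-3 on V (12352745 to 12354320). The annotation gives 1 exon to dpy-5, 2 to dpy-17, 5 to rol-1 and 3 to each of the other genes. Their coding lengths run from 852 bases in dpy-5 to 1374 in rol-1. The gene dpy-4 overlaps atln-2 on the opposite strand, and whether the counting used strand is not given in the sources used here. All 1930 footprints of atln-2 over the 43 libraries compare with at least 7108 of dpy-4 in each library.

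Together the 9 genes took from 0.598 to 2.86% of the footprints of an N2 library. Their share was 0.577 to 3.18% for lin-41(xe11), 0.459 to 3.50% for the double mutant and 0.328 to 3.36% for let-7(n2853). Levels below are CPM, the count scaled to 1000000 counts of library total. Per kilobase of coding sequence, dpy-5 had the highest median level in N2, at 6947 CPM per kb over the 11 hours. It was followed by dpy-4 with 4872, dpy-13 with 3550.4, sqt-3 with 2401, sqt-1 with 1890.5, sqt-2 with 1389.6 and rol-6 with 579. The medians of dpy-17 (1.00 CPM per kb) and rol-1 (0.667) were close to 1, since dpy-17 stayed low throughout and rol-1 until 32 h. From dpy-5 to sqt-2, the medians of neighbours in this order differed by less than the larger SD over hours of each pair, such as 2444 CPM per kb for dpy-5 against 1739 for dpy-4. The medians of sqt-2 and rol-6 differed by more than either SD (558 and 376), as did those of rol-6 and dpy-17. An SD over hours includes the pulses described below, so it does not measure how firm the order is within a library. There the ratio of CPM, not corrected for length, was at most 0.907 for dpy-4 to dpy-5 over all strains. It was at most 0.852 for sqt-1 to sqt-3 and 0.804 for sqt-2 to sqt-1. The order of the medians was the same in lin-41(xe11) and the double mutant, whereas sqt-3 stood above dpy-13 in let-7(n2853), at 3199 against 2740.3 CPM per kb. Because whole animals were lysed, fewer epidermal cells and fewer footprints per cell cannot be told apart.

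The dumpy genes dpy-4, dpy-5 and dpy-13 came in 3 pulses. From 18 to 38 h, N2 held 2815, 7395, 6181, 3749, 5919, 8585, 4776, 1451, 6215, 6916 and 5279 CPM of dpy-5, a collagen whose loss gives a strongly dumpy animal. In lin-41(xe11) the series was 3511, 8308, 7229, 1391, 7328, 9292, 4282, 1453, 6259, 8356 and 5229 CPM. The series of the double mutant was 1226, 8024, 7732, 1312, 5612, 10618, 2438, 1035, 4979, 7942 and 5488 CPM. Maxima therefore stood at 20, 28 and 36 h in these 3 strains, with low points at 24 and 32 h between them. In let-7(n2853), from 18 to 36 h, dpy-5 had 566, 5207, 5591, 1468, 2571, 8374, 3448, 1153, 3332 and 7379 CPM, so that its first maximum was at 22 h. The trough at 24 h was shallower in N2, whose 3749 CPM lay above the 1312 to 1468 CPM of the other 3 strains, while at 32 h all 4 lay between 1035 and 1453. The same held for dpy-4 at 24 h, with 2833 CPM in N2 against 1065 for lin-41(xe11), 999 for the double mutant and 1163 for let-7(n2853).

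These 3 genes moved as a unit. Over the 43 libraries dpy-4 ran from 494 to 7634 CPM, with a median of 3829.8, and dpy-13 from 415 to 6090.2 CPM, with a median of 3108. Across the 33 libraries of the second course, which share strains, hours and depth, the log2 levels of the 3 pairs correlated at 0.999 (Pearson). Within a library the ratio of dpy-4 to dpy-5 stayed between 0.681 and 0.779 in N2, between 0.668 and 0.788 for the double mutant and between 0.698 and 0.778 in lin-41(xe11). In let-7(n2853) it was 0.792 to 0.907, above every library of the second course. The ratio of dpy-13 to dpy-5 was likewise 0.664 to 0.765 there against 0.522 to 0.610 in the second course. As these offsets are present at every hour and the courses differ in strain and purification, the 2 sources cannot be told apart.

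**Figure D1:**
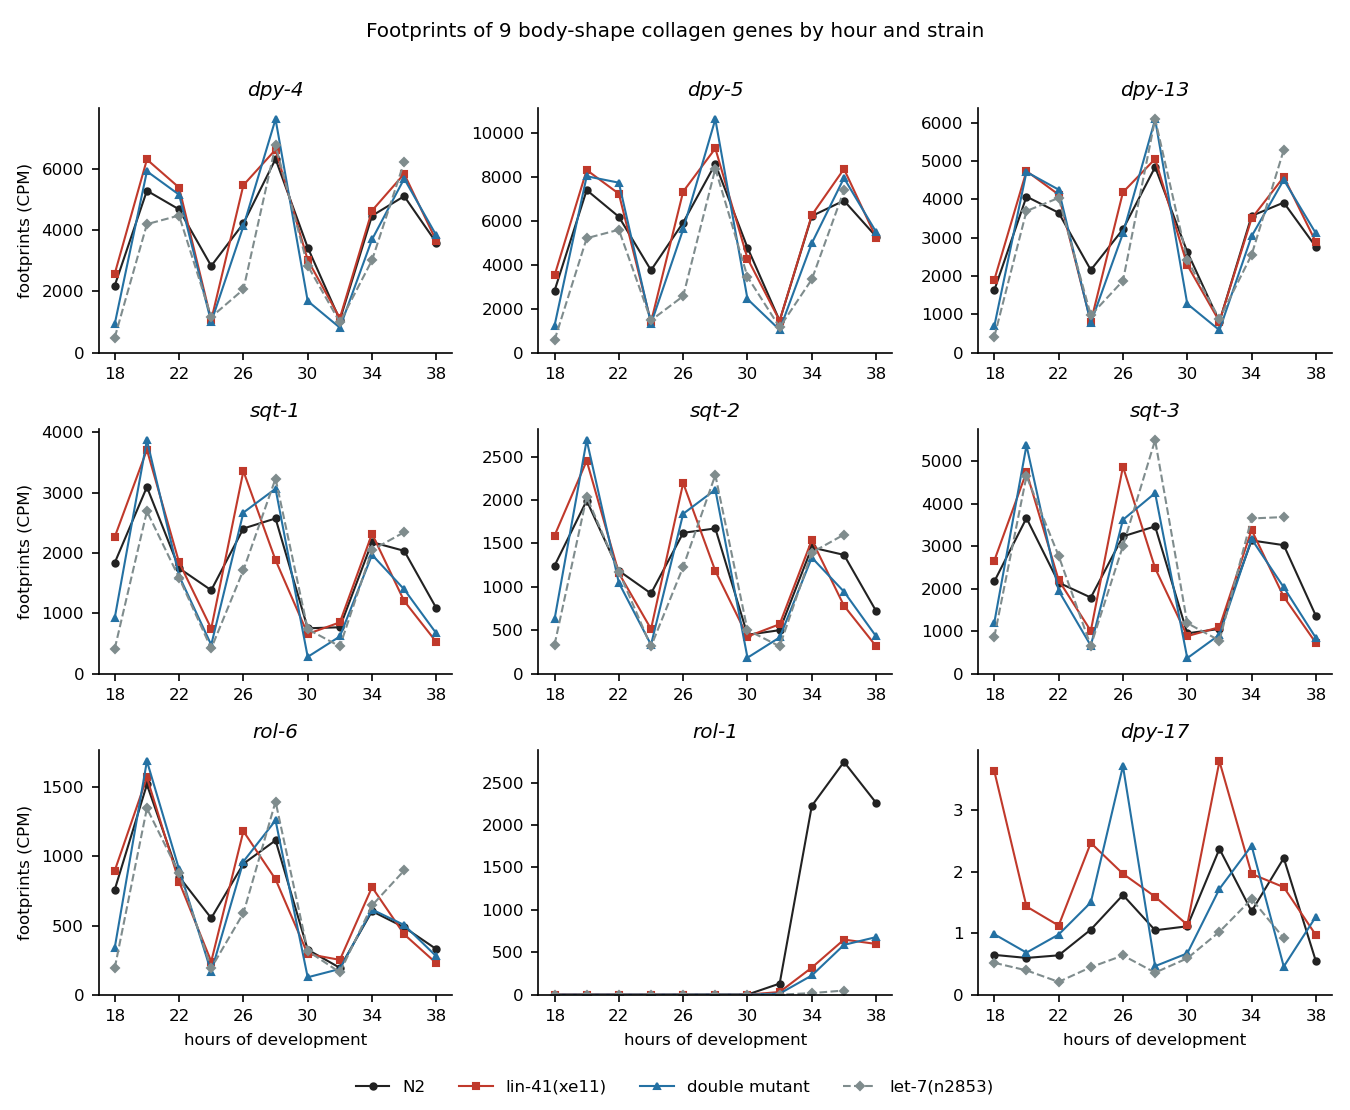
Footprints of each gene (CPM, linear axis that starts at 0 and differs between panels) against hours of development, with 1 point per library and a line per strain (dashed for let-7(n2853), the separate time course). The panels of dpy-4, dpy-5 and dpy-13 peak at 28 h in all 4 strains, those of sqt-1, sqt-2, sqt-3 and rol-6 are low at 30 and 32 h, rol-1 passes 2 CPM from 32 h on (34 h in let-7(n2853)), and dpy-17 stays under 4 CPM.

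The squat genes sqt-1, sqt-2 and sqt-3 and the roller gene rol-6 also pulsed. Their peak was slightly earlier in the fit over all cycles given below, though the highest sampled hour was the same in some cycles. From 18 to 38 h, N2 held 2168, 3659, 2141, 1790.3, 3229, 3464, 948, 1052, 3133, 3022 and 1358 CPM of sqt-3, a collagen needed from embryonic life on. The series was 2660.2, 4742, 2200.4, 1006, 4869, 2481, 883, 1094, 3379, 1808 and 721 CPM in lin-41(xe11). The double mutant had 1203, 5368, 1951, 659, 3619, 4247, 365, 915, 3166, 2031 and 839 CPM. All 3 strains were highest at 20 h in the first cycle and at 34 h in the last, and the second maximum was at 28 h in N2 and the double mutant but at 26 h in lin-41(xe11). In let-7(n2853), from 18 to 36 h, sqt-3 had 865, 4648, 2771, 654, 3006, 5492, 1188, 779, 3650.2 and 3683 CPM, and here 34 and 36 h were nearly level. In N2 sqt-3 was at its lowest at 30 h, while dpy-5 still held 4776 CPM there and reached its own lowest level, 1451 CPM, 2 h later.

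The other genes of this group had lower levels. Their course resembled that of sqt-3, except for the low point of rol-6 after 28 h in N2 and lin-41(xe11). In N2 rol-6 was lowest at 32 h, with 194 CPM against 325 at 30 h. In lin-41(xe11) rol-6 was likewise lower at 32 h (252 CPM) than at 30 h (295), whereas sqt-3 there was lower at 30 h. Over the 43 libraries sqt-1 ran from 278 to 3870.0 CPM (median 1715), sqt-2 from 184 to 2689 (median 1175) and rol-6 from 126 to 1689.7 (median 604). Their 6 pairwise correlations with sqt-3 and each other over the 33 libraries of the second course were between 0.938 and 0.999. Between the squat and roller group and the dumpy trio the 12 correlations were lower, from 0.639 to 0.750. With rol-1 the correlations ran from −0.287 to 0.139 and with dpy-17 from −0.314 to 0.047.

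A cosine with a period of 8 h, fitted with a linear trend to the 10 libraries of 18 to 36 h of each strain, gave the peak hours. Peak hours are quoted for the cycle from 23 to 31 h, with standard errors. In N2 the squat genes peaked first, at 27.2 ± 0.26 h for sqt-2, 27.2 ± 0.25 for sqt-3 and 27.3 ± 0.24 for sqt-1. They were followed by rol-6 at 27.6 ± 0.28 h, and by dpy-5, dpy-4 and dpy-13 each at 28.1 h, with standard errors of 0.33, 0.33 and 0.34. The order squat genes, rol-6, dumpy trio held in all 4 strains. The mean peak of the dumpy trio came later than that of the 3 squat genes in each strain, and rol-6 lay between them. The lag was 0.865 h in N2, 0.937 h in lin-41(xe11), 0.789 h for the double mutant and 0.681 h for let-7(n2853), and was not tested. In let-7(n2853) every one of the 7 genes peaked later than in the other strains, from 27.9 ± 0.27 h in sqt-3 to 28.6 ± 0.25 in dpy-5, again with the course not separable from the strain.

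Not every rhythm passed the test. With limma's moderated F-test, adjusted over all genes, 3 of the 8 members tested in N2 were rhythmic, where 7.14% of all genes were. They were sqt-1 (limma adjusted p = 0.0427), sqt-3 (0.0472) and sqt-2 (0.0488). In N2 rol-6 (limma adjusted p = 0.0570), dpy-4 (0.0850), dpy-5 (0.0866) and dpy-13 (0.0916) missed the threshold, though their peak-to-trough swings, 1.68 to 1.72 on the log2 scale, were as large as the 1.66 to 1.71 of the squat genes. In lin-41(xe11) 7 of 8 passed, where 24.2% of all genes did, with swings from 1.91 ± 0.45 in sqt-1 to 2.56 ± 0.46 in dpy-5. In the double mutant dpy-4, dpy-5 and dpy-13 passed, 3 of the 7 tested where 16.8% of all genes did, and in let-7(n2853) all 7 tested passed, where 31.6% did. Swings were 2.74 to 2.97 for the double mutant and 2.79 to 2.92 in let-7(n2853). The number of rhythmic members depends on single libraries. Without 1 hour it ran from 0 to 4 in N2 (0 without 20, 22, 26, 28, 30, 32, 34 or 36 h) and from 0 to 7 in lin-41(xe11) (0 without 24 or 32 h, 3 without 30 h, 4 without 34 h). The double mutant gave 0 (without 20, 24, 26, 28, 32, 34 or 36 h) to 7 (without 18 h), and let-7(n2853) gave 3 (without 20, 24, 28 or 32 h) to 7. The calls over all genes moved as well. N2 had 0 without 30 or 36 h, 2 without 32 h and up to 909 otherwise. The double mutant had 0 without 24, 26, 28, 34 or 36 h and up to 2153 otherwise. The counts stayed at 2064 to 2821 in lin-41(xe11) and 2700 to 3304 in let-7(n2853). A period of 9 h left no member called in any strain, and called 0 of all genes tested in each strain as well.

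The difference in swing between the mutants and N2 did not pass a test. The test of the strain difference in the rhythm itself called 0 of 9 members in lin-41(xe11) and 0 of 9 for the double mutant with limma, and 0 members had an unadjusted p under 0.05 in either. It called 0% of the 13520 genes tested, with 1.74% and 1.46% of genes at an unadjusted p under 0.05. The smallest unadjusted limma p among the members was 0.0791, for dpy-17 of the double mutant.

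**Figure D2:**
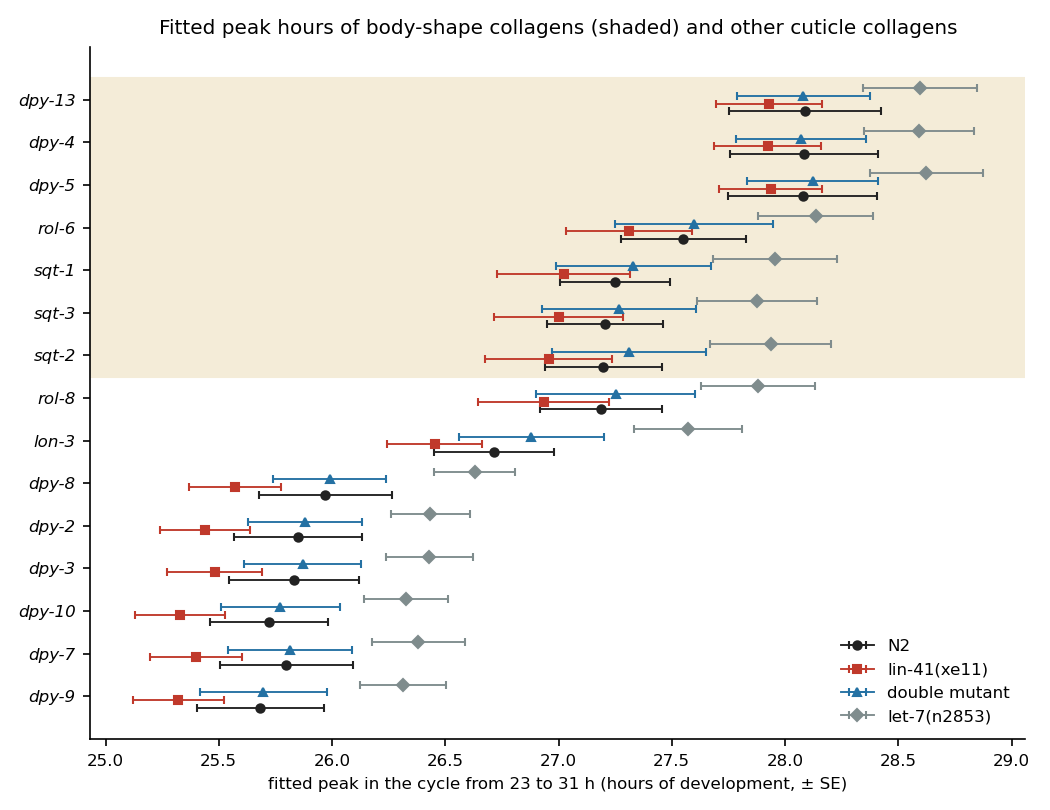
Fitted peak hour (x axis, in the cycle from 23 to 31 h) with its standard error for 7 of the body-shape collagens (shaded) and 8 other cuticle collagens, in each strain. From bottom to top the furrow collagens, lon-3, the squat genes, rol-6 and the dumpy trio follow each other in time, rol-8 lies with the squat genes, and the let-7(n2853) points lie to the right of the others.

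Set among other cuticle genes, the 7 pulsing members came late in the cycle. The 6 furrow collagens peaked in N2 between 25.7 and 26.0 h, ahead of the mean of the squat genes by 1.41 h in N2, 1.57 h in lin-41(xe11), 1.47 h for the double mutant and 1.504 h for let-7(n2853). In N2 the collagen lon-3, which acts on body length, peaked at 26.7 ± 0.27 h and the roller collagen rol-8 at 27.2 ± 0.27 h, and neither rhythm was called (limma adjusted p = 0.0521 and 0.0547). Genes for collagen maturation straddled the members. In N2 the processing protease gene dpy-31 peaked at 25.4 ± 0.25 h, the prolyl hydroxylase subunit gene phy-2 at 26.0 ± 0.23 h and the thioredoxin-like dpy-11, whose rhythm was not called, at 26.4 ± 0.27 h, all before the squat genes. The peroxidase gene mlt-7, whose product works on crosslinking, peaked at 30.1 ± 0.21 h, after all of them, and in let-7(n2853) at 30.8 ± 0.20 h. The lists below are read against the shares of all genes called rhythmic, 7.14% in N2, 24.2% in lin-41(xe11), 16.8% for the double mutant and 31.6% for let-7(n2853). Of the 15 genes of collagen biosynthesis and secretion tested, limma called 3 rhythmic in N2 (dpy-31, phy-2 and mlt-7), 11 in lin-41(xe11), 6 for the double mutant and 11 for let-7(n2853). Of 10 other cuticle collagens, limma called 1 in N2 (dpy-10), 8 in lin-41(xe11), 6 for the double mutant and 9 for let-7(n2853). Among regulators in N2, the molting receptor gene nhr-23 peaked at 24.5 ± 0.27 h and the zinc finger gene bed-3 at 27.7 ± 0.28 h, neither called (limma adjusted p = 0.0521 and 0.0600). Of 13 epidermal and molting regulators, limma called 1 in N2 (myrf-1), 9 in lin-41(xe11), 4 for the double mutant and 7 for let-7(n2853). Of 11 genes of the DBL-1 pathway, a TGF-beta signal that sets body size, limma called 0 in N2, 2 in lin-41(xe11), 0 for the double mutant and 5 for let-7(n2853). In N2 the counts of 1 other collagen, 1 regulator and 0 DBL-1 genes are near or below the share of all genes, as is that of the DBL-1 genes in both lin-41(xe11) strains. The median swing of those 11 genes in N2 was 0.33 on the log2 scale, where that of all genes tested was 0.32 and that of the members 1.69.

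The lag between the groups shows as a sawtooth in the ratio of sqt-3 to dpy-5 within a library. This is a ratio of CPM not corrected for length, so only its course matters. In N2 it went from 0.770 at 18 h to 0.346 at 22 h, from 0.546 at 26 h to 0.199 at 30 h, and from 0.725 at 32 h to 0.257 at 38 h. In lin-41(xe11) it went down within each cycle as well, from 0.753 at 32 h to 0.138 at 38 h, and in the double mutant from 0.885 to 0.153. The ratio thus stepped up between 30 and 32 h in these 3 strains and was lower at each later hour. In let-7(n2853) it went from 0.345 at 30 h over 0.676 at 32 h to 1.095 at 34 h, and was 0.499 at 36 h.

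The ratio of rol-6 to sqt-1 behaved differently. In N2 it lay between 0.394 and 0.492 at every hour up to 30 h and between 0.239 and 0.304 from 32 h on, so the 2 ranges did not overlap. In lin-41(xe11) it was 0.296 at 32 h, 0.335 at 34 h, 0.363 at 36 h and 0.435 at 38 h, and in the double mutant 0.302, 0.313, 0.361 and 0.416. Both mutants were above N2 at each of these 4 hours, and let-7(n2853) was above N2 from 32 to 36 h with 0.357, 0.315 and 0.383. This difference in ratio was seen in the data and was not tested, and neither gene alone was called between strains.

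**Figure D3:**
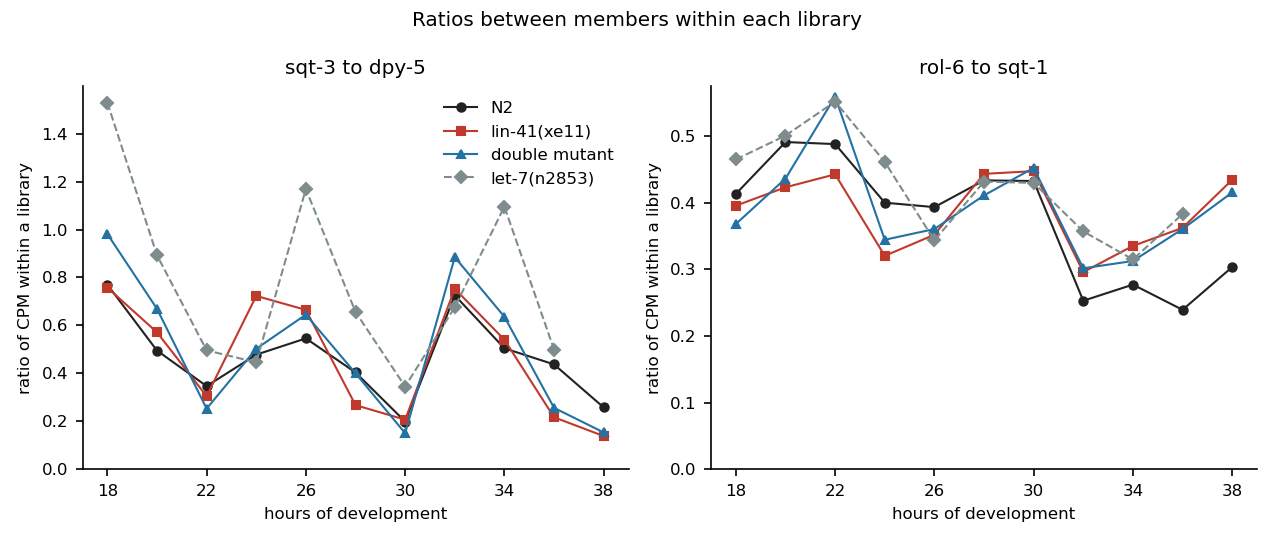
Ratio of CPM within each library (linear axis from 0) for sqt-3 to dpy-5 and for rol-6 to sqt-1 against hours of development, with 1 point per library and a line per strain. The first ratio is lower at the end of each cycle and steps up again, to 0.725 at 32 h in N2, and the second is 0.433 at 30 h and 0.253 at 32 h in N2, with 0.304 at 38 h.

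The gene rol-1, a collagen named for its rolling mutants, had no early pulses and appeared from 32 h on. In N2 from 18 to 38 h it had 0, 0.199, 0.256, 0.529, 0.873, 0.916, 1.33, 130.9, 2226, 2744 and 2261 CPM. In lin-41(xe11) it had 0.982, 1.35, 0.749, 0, 0.983, 0.736, 0.994, 31.3, 319, 649 and 598 CPM. The double mutant had 0.0894, 0.195, 0.326, 0.265, 0.991, 1.30, 0.269, 12.96, 227, 587 and 679 CPM. Up to 30 h these values rest on at most 17 footprints a library, and the 2 counts of 0 allow up to 0.243 CPM at 18 h in N2 and 0.353 CPM at 24 h in lin-41(xe11) (3 counts, counting error only). In all 3 strains the first library above 2 CPM was that of 32 h, and both mutants were below N2 at each hour from 32 to 38 h. From 34 to 38 h the N2 levels (2226 to 2744 CPM) did not overlap those of either mutant (227 to 679 CPM). At 36 h rol-1 reached 1997 CPM per kb in N2, the sixth level among the 9 genes, against 473 for lin-41(xe11) and 427 for the double mutant.

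The gap to N2 was widest at 34 h in lin-41(xe11) and at 32 h for the double mutant. At 32, 34, 36 and 38 h rol-1 in N2 was 4.18, 6.97, 4.23 and 3.78 times its level in lin-41(xe11). Against the double mutant the factors were 10.1, 9.83, 4.67 and 3.33. In let-7(n2853), the other course, rol-1 had 0.115, 0.198, 0.173, 0.0894, 0.364, 1.59, 0.465, 0.248, 18.5 and 49.2 CPM from 18 to 36 h. Here the first library above 2 CPM was that of 34 h, with 8 footprints at 32 h, 512 at 34 h and 1335 at 36 h, and at 36 h N2 was 55.8 times higher.

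**Figure D4:**
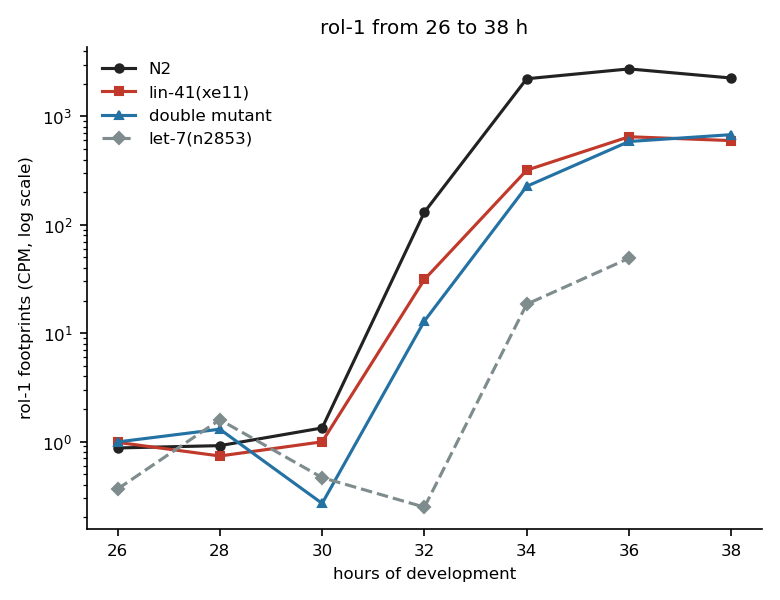
Footprints of rol-1 (CPM, log axis) from 26 to 38 h, with 1 point per library and a line per strain (dashed for let-7(n2853)). All 4 strains lie under 2 CPM up to 30 h, N2 climbs to 130.9 CPM at 32 h and 2744 at 36 h, the 2 strains with lin-41(xe11) run below it, and let-7(n2853) reaches 49.2 CPM at 36 h.

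In edgeR's quasi-likelihood test over the late window of 28 to 36 h (5 libraries per strain), rol-1 fell by 2.24 ± 0.31 on the log2 scale in lin-41(xe11) against N2 (adjusted p = 0.00100), a 4.72-fold lower level. Against N2, rol-1 of the double mutant fell by 2.75 ± 0.31 (edgeR adjusted p = 6.90e-05), 6.71-fold. At 28 and 30 h N2 held only 0.916 and 1.33 CPM of rol-1, and the mutants 0.269 to 1.30, so both values rest mainly on 32, 34 and 36 h. The gene rol-1 was the 1 member of 9 called in either mutant, where 0.348% of all 13508 genes were called lower in lin-41(xe11) and 0.644% for the double mutant. Over 34 to 38 h (3 libraries per strain) the values were −2.34 ± 0.32 in lin-41(xe11) (edgeR adjusted p = 0.000232) and −2.47 ± 0.32 for the double mutant (edgeR adjusted p = 9.58e-05). This was 1 of 9 members in each, where 1.14% and 1.92% of genes were called lower. The 2 windows share the libraries of 34 and 36 h, so the second is not an independent repeat of the first. Over 28 to 32 h, when rol-1 was only starting, it stood at −1.74 ± 0.49 (edgeR adjusted p = 0.631) in lin-41(xe11) and −2.71 ± 0.54 (0.0821) for the double mutant. There edgeR called 0 of 9 members in each, where it called 0.0512% and 0.0658% of genes, with 1 member each (rol-1) at an unadjusted p under 0.05. DESeq2 also called 0, with 0 and 1 members at that unadjusted level, and gave no adjusted p to dpy-17 of the double mutant. Both contrasts share the N2 libraries, and rol-1 of the double mutant stood at −0.51 ± 0.31 against lin-41(xe11) (edgeR adjusted p = 0.953), with 0 of 9 members called between them where 0.126% of genes were. There 1 member, dpy-17, had an unadjusted p under 0.05, and DESeq2 called 0, with 1 at that level.

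The direction of rol-1 held in all alternatives run for these 4 late comparisons, but the call did not. Over the late window the value ran from −1.47 to −2.40 in lin-41(xe11) and from −1.85 to −3.03 for the double mutant. With each mutant library matched to N2 by estimated developmental age, the value was −1.51 in lin-41(xe11) (limma adjusted p = 0.326) and −1.85 for the double mutant (limma adjusted p = 0.455). Without both 34 and 36 h it was −1.81 in lin-41(xe11) (edgeR adjusted p = 0.501) and −2.81 for the double mutant (0.0764). In lin-41(xe11) over the late window DESeq2 (−1.81, adjusted p = 0.330) and limma on the deposited log2 values (−1.47, adjusted p = 0.195) did not call it either. DESeq2 also missed it in lin-41(xe11) over 34 to 38 h (−2.35, adjusted p = 0.0677), and edgeR without hour terms missed it in all 4 comparisons. Of all genes, age matching called 1 in lin-41(xe11) and 2 for the double mutant (13691 tested). Without both 34 and 36 h edgeR called 5 and 7 (12634 tested). Without hour terms edgeR called 3 and 4 over the late window (13508 tested), and 7 and 25 over 34 to 38 h (13680 tested). In lin-41(xe11) over the late window DESeq2 called 53 genes and limma on the deposited values 16. Leaving out any 1 hour ended none of the 4 rol-1 calls. Estimated ages, from genes other than the 9, lay from 0.6 h below to 0.8 h above the labelled hour in lin-41(xe11) and within 0.7 h of it in the double mutant.

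The other members were not called in either late window. In the late window the 7 pulsing genes stood between −0.26 and −0.01 in lin-41(xe11) (smallest edgeR adjusted p = 0.867) and between −0.42 and −0.22 for the double mutant (smallest edgeR adjusted p = 0.586). With standard errors of 0.24 to 0.27, each of these values is less than 2 standard errors from 0. Over 34 to 38 h the values of the squat genes lay below those of the dumpy trio. In lin-41(xe11) sqt-1 stood at −0.61 ± 0.34, sqt-2 at −0.68 ± 0.35 and sqt-3 at −0.56 ± 0.34, and in the double mutant at −0.52 ± 0.33, −0.53 ± 0.34 and −0.48 ± 0.34, none called (smallest edgeR adjusted p = 0.486 and 0.508). By contrast dpy-5 was at 0.05 ± 0.32 and −0.06 ± 0.32, dpy-4 at 0.05 ± 0.30 and −0.05 ± 0.31, and rol-6 at −0.14 ± 0.35 and −0.10 ± 0.34. At 38 h sqt-3 had 1358 CPM in N2 but 721 for lin-41(xe11) and 839 for the double mutant, while at 34 h the 3 strains lay between 3133 and 3379 CPM. The difference between the squat genes and the dumpy trio was not tested.

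**Figure D5:**
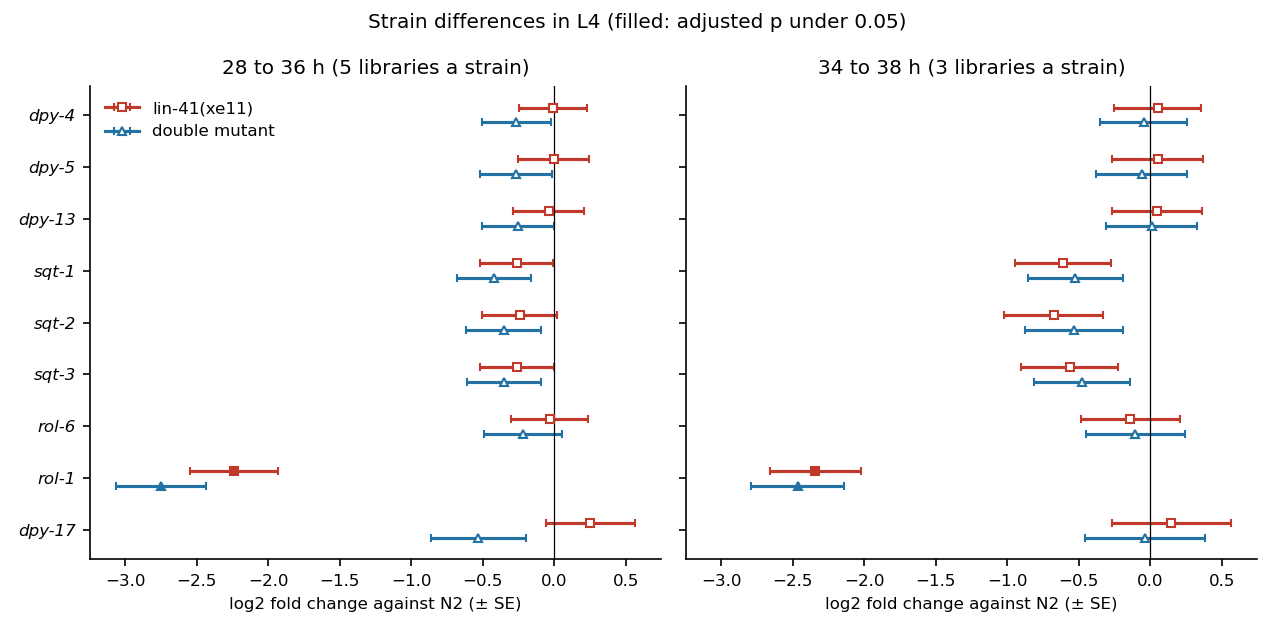
Log2 fold change against N2 with its standard error (edgeR) for the 9 genes in lin-41(xe11) and the double mutant, over 28 to 36 h and over 34 to 38 h. Filled symbols mark an adjusted p under 0.05; rol-1 is the one gene with filled symbols, between −2.24 and −2.75, and the other 8 lie between −0.68 and 0.25.

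Early larvae gave no call. Over 18 to 24 h (4 libraries per strain) edgeR called 0 of 9 members in each mutant, where 0.0222% of genes were called for lin-41(xe11) and 0.037% for the double mutant. With an unadjusted p under 0.05 there was 1 member in each, dpy-17 for lin-41(xe11) and dpy-4 for the double mutant, and DESeq2 called 0 as well, with 2 and 1 members at that unadjusted level. For the double mutant DESeq2 gave an adjusted p to only 1200 of the 13508 genes, and to 8 of the 9 members, dpy-17 having none. The 7 pulsing genes stood between −0.25 and −0.04 in lin-41(xe11) and between −0.61 and −0.43 for the double mutant (smallest edgeR adjusted p = 0.752). The double mutant was lower at 18 and 24 h, where dpy-5 had 1226 and 1312 CPM against 2815 and 3749 in N2. At 20 and 22 h it had 8024 and 7732 CPM against 7395 and 6181.

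For let-7(n2853) the change from the early to the late window was compared with that of N2, so that a constant offset between the courses cancels. The test by edgeR called 0 of 9 members, where 0.023% of genes were called. The value of rol-1 was −5.0 ± 3.20 (edgeR adjusted p = 0.619), with early counts of only 2 to 5 a library in let-7(n2853) and 0 to 4 in N2. The 7 pulsing genes lay between 0.66 and 1.04 (smallest edgeR adjusted p = 0.464), with rol-6 the 1 member at an unadjusted p under 0.05. DESeq2 called 0 of the 8 members to which it gave an adjusted p (not dpy-17), with 3 at an unadjusted p under 0.05.

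Footprints of dpy-17 were few in every library. From 18 to 38 h N2 had 8, 3, 5, 8, 13, 8, 10, 19, 14, 22 and 5 counts in its 11 libraries, or 0.543 to 2.37 CPM. The range was 0.457 to 3.72 CPM for the double mutant, 0.968 to 3.795 in lin-41(xe11) and 0.208 to 1.55 in let-7(n2853). Its partner sqt-3 had at least 365 CPM in every library. Early levels in lin-41(xe11), of 3.63, 1.43, 1.12 and 2.47 CPM from 18 to 24 h, were all above the 0.647, 0.598, 0.640 and 1.06 CPM of N2, yet the change of 1.63 ± 0.40 was not called (edgeR adjusted p = 0.250). Within N2, dpy-17 rose from the early to the late window by 1.32 ± 0.37 (edgeR adjusted p = 0.0404). It was the 1 member of 8 called in either direction. Of all 11806 genes tested, edgeR called 984 higher (8.33%) and 960 lower, so 1 of 8 is not above the share of all genes called. The filter on low counts asks for 1 CPM in 5 or more libraries. All 5 late N2 libraries reached it for dpy-17, but among the early ones only that of 24 h, so dpy-17 was tested because of its late levels. In this comparison the 7 pulsing genes stood between −0.59 and 0.33 (smallest edgeR adjusted p = 0.432). The dpy-17 call ended without 18, 20, 22, 32, 34 or 36 h, with no filter on low counts (1.30, edgeR adjusted p = 0.0588) and in limma on the deposited log2 values (0.68, adjusted p = 0.0581). Its fitted peak, at 25.1 ± 0.90 h in N2 and 25.2 ± 0.37 h in lin-41(xe11), was not called (limma adjusted p = 0.627 and 0.0721).

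In the late window few genes of the wider lists were called. Of 16 genes of collagen biosynthesis and secretion edgeR called 0 in either mutant, with medians of −0.09 for lin-41(xe11) and −0.11 for the double mutant where the medians of all genes were −0.01 and −0.02. By edgeR 0 of them had an unadjusted p under 0.05 in either mutant, and DESeq2 called 0, with 1 and 0 at that level and no adjusted p for phy-3 of the double mutant. The protein disulfide isomerase gene pdi-2 stood at −0.22 ± 0.11 in lin-41(xe11) (edgeR adjusted p = 0.665). Of 10 other cuticle collagens tested, edgeR called 1 in lin-41(xe11) and 2 in the other mutant, all lower. One of them, bli-1, a strut collagen of the adult cuticle, fell by 2.66 ± 0.29 in lin-41(xe11) (edgeR adjusted p = 8.95e-05) and by 3.15 ± 0.29 for the double mutant (edgeR adjusted p = 5.36e-06). The second strut collagen, bli-2, fell by 1.26 ± 0.25 for the double mutant (edgeR adjusted p = 0.0166) and stood at −0.84 ± 0.25 in lin-41(xe11) (edgeR adjusted p = 0.252). Of 11 DBL-1 pathway genes edgeR and DESeq2 called 0 in each mutant, with 0 at an unadjusted p under 0.05. The receptor gene daf-4 stood at 0.15 ± 0.07 for the double mutant (edgeR adjusted p = 0.491). Among 13 regulators lin-29 and its cofactor gene mab-10, which promote the adult fate of the epidermis, fell in both mutants. The values of lin-29 were −0.87 ± 0.17 (edgeR adjusted p = 0.0191) in lin-41(xe11) and −0.95 ± 0.16 (0.00553) for the double mutant, and those of mab-10 −1.27 ± 0.19 (0.00200) and −1.17 ± 0.18 (0.00173). The third called regulator was lin-41 itself, higher by 1.60 ± 0.24 and 1.43 ± 0.24 (edgeR adjusted p = 0.00256 and 0.00428). With age matching 0 of the 5 genes bli-1, bli-2, lin-29, mab-10 and lin-41 were called in either mutant. For the genes and mutants called above, the limma adjusted p there ran from 0.126 to 0.453. Age matching called 1 gene of all 13691 in lin-41(xe11) and 2 for the double mutant. Without hour terms edgeR called only lin-41 of these 5, where it called 3 and 4 of all 13508 genes. The calls of lin-29 in both mutants and of bli-2 for the double mutant also ended without 32, 34 or 36 h, that of lin-29 in lin-41(xe11) without 30 h and in limma on the deposited log2 values, that of bli-2 in limma on those values, and those of mab-10 without both 34 and 36 h.

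The genes whose log2 levels most resembled each member over the 33 libraries of the second course split the same way. Those libraries share strains and hours, and each correlation is a description. The collagen col-111 was nearest to dpy-4 (0.983), dpy-13 (0.982) and dpy-5 (0.980). The collagen rol-8 was nearest to sqt-2 (0.997), sqt-1 (0.996) and sqt-3 (0.993), and chtb-1 to rol-6 (0.982). The collagens col-71 (0.994), col-175 (0.994) and col-63 (0.993) were nearest to rol-1. For dpy-17 the highest correlation was 0.701, with F10A3.4.

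Library totals ran from 5020197 to 12797339 counts in the second course and from 17364056 to 32261888 for let-7(n2853). The label check, lin-41, had 64.3 ± 7.50 CPM in early N2 (SD, n = 4) and 9.53 ± 5.02 in late N2 (n = 5), against late means of 30.8 ± 9.56 for lin-41(xe11), 26.9 ± 5.48 for the double mutant and 56.7 ± 6.45 for let-7(n2853) (n = 5 each). In the late window the summed level of 4 epidermal transcription factor genes ran from 68.1 to 98.3 CPM in N2, 65.4 to 96.5 for the double mutant, 69.7 to 101 in lin-41(xe11) and 99.4 to 124 in let-7(n2853), and none was at 0. Sums for muscle, intestine, germ line, nervous system, pharynx and sperm overlapped between N2 and both lin-41(xe11) strains in that window. The part of such shifts in the values of let-7(n2853) was not tested.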

How the data were processed

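The authors deposited a table of raw footprint counts per gene and a table of log2 values, for ribosome profiling of whole worms. Reads were mapped with Bowtie, per the submitters' processing notes; its version, the genome build, strand use and the handling of reads that map to several places are not given in the sources used here, so near-identical collagens are uncertain. The deposited log2 values had been scaled by the authors to totals of 26096086 (first course) and 12019637 (second). Gene identifiers were matched to symbols (18778 of 20182 rows). No 2 libraries were identical, and 0 per-sample columns were left unmapped.

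CPM are counts scaled to 1000000 per library. Counts were fitted with edgeR 4.0.16 in R 4.3.3 (quasi-likelihood, TMM, keeping genes that reach 1 CPM in 5 or more libraries, Benjamini-Hochberg over all genes, threshold 0.05). All 9 members passed this filter in the fits over strains and 8 passed in N2 alone, where rol-1 was left out. The 3 strains of the second course shared a fit with a term for each hour (27 libraries with 14 residual degrees of freedom; 30 libraries for 3 windows), and N2 and let-7(n2853) another (18 libraries). Rhythms were fitted with limma 3.58.1 on log2 CPM (prior count 2). DESeq2 1.42.0, other scaling, filters, windows, periods, age matching and leaving out hours were alternatives. The fits were tested on simulated data with known changes, added to gene means that were otherwise constant over hours. The spread between simulated libraries was capped, so that test cannot show how the fits perform on these pulsing genes. All 9 members are named, with the 3 genes most correlated with each (at least 5 CPM on average) available for naming, and up to 4 genes of each list by smallest p; the nearest gene is printed, for rol-1 all 3, and genes named for their peak hour were chosen after their values were seen. Members and lists were chosen with earlier results of these data known. The collagen bli-6 is not analysed here.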

Additional observations from a re-analysis of the deposited data

Results flagged for a closer look

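Among 72 groups of 4 or 5 hours examined for a lone value, 1 was found, where chance alone would give about 5% of groups: dpy-17 at 24 h in early N2, with 1.06 CPM, stood apart from 0.647, 0.598 and 0.640 CPM at 18, 20 and 22 h. The 24 h library held the same small count of dpy-17 footprints as that of 18 h, from a lower library total (7559420 against 12361022 counts). Early dpy-17 differed from N2 in opposite directions in different strains, at every hour of 18 to 24 h: the mean log2 difference was 1.45 in lin-41(xe11) and −0.94 in let-7(n2853). In the double mutant it was 0.48, also against −0.94 in let-7(n2853). These opposite signs were not tested, rest on 3 to 37 footprints a library, and set let-7(n2853) of the first course against N2 of the second.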

How the results depend on the processing

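No member reversed its direction past a threshold in any alternative run. The 1 member called over the late window (rol-1) became 0 in lin-41(xe11) with DESeq2, the deposited log2 values, age matching, no hour term, or without both 34 and 36 h, and 0 in the double mutant with age matching, no hour term or without both 34 and 36 h. Over 34 to 38 h it became 0 with no hour term in both mutants and with DESeq2 in lin-41(xe11). Leaving out 1 hour at a time gave 1 in each of these 4 comparisons. In the double mutant over 28 to 32 h, leaving out hours gave 0 to 1, with rol-1 at −3.25 (edgeR adjusted p = 0.00934) without 28 h. In N2 late against early, 1 became 0 with the deposited log2 values, and 0 to 1 without single hours. With no filter on low counts there was still 1, but it was rol-1, tested only then, in place of dpy-17. Rhythmic members in N2 (3) became 0 with a period of 7 h or 9 h or no trend, and 0 to 4 without single hours. In the double mutant (3) there were 7 with a period of 7 h, 0 with 9 h, 0 with no trend, 5 with 38 h added, and 0 to 7 without single hours. In lin-41(xe11) (7) there were 0 with 9 h, 3 with no trend, and 0 to 7 without single hours; in let-7(n2853) (7), 0 with 9 h and 3 to 7. The cause was not tested. Over all genes, the 56 calls of lin-41(xe11) in the late window ranged from 1 (age matching) to 138 (wider windows), the 123 of the double mutant from 2 to 329, and the 17 between them from 5 to 34. Over 34 to 38 h the 244 and 490 ranged from 7 to 319 and from 25 to 562, and over 28 to 32 h the 7 and 9 from 1 to 9 and from 2 to 16. Early calls ranged from 0 to 24 (3 as reported) in lin-41(xe11) and from 1 to 39 (5) in the double mutant, let-7(n2853) from 0 to 58 (3), and N2 late against early from 633 to 2622 (1944). The 39 and the 58 come from DESeq2, which gave an adjusted p to only 1200 of 13508 and 9009 of 13061 genes. Rhythmic genes ranged from 0 to 973 in N2 (848), 0 to 2945 in lin-41(xe11) (2856), 0 to 3892 in the double mutant (1985) and 0 to 3912 in let-7(n2853) (3703). The period of 9 h called 0 genes in each strain. The fits over strains pair libraries by hour through the hour terms, and the fits with no hour term are the unpaired ones; the labels give no replicate numbers. Depth limits dpy-17 and rol-1 before 32 h, which rest on a few counts.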
